A study of Mus musculus with 12 samples.

Results

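The comparison described here is that of decitabine-treated with control 4T1 cells, 6 of the 12 ATAC-seq libraries of the series. 4T1 is a mouse mammary carcinoma line, and as it is 1 line the results describe it alone. The control group held 3 libraries and the decitabine (DAC) group held 3 libraries of cells given 1 µM DAC for 48 h. Dead cells were removed with beads in the protocol and live cells were taken into the assay. The labels give no separate cultures behind the replicate numbers, so every p-value below reflects variation among libraries alone, and this may be technical. ATAC-seq uses a transposase that inserts adapters into open DNA, and a peak is an interval with more insertions than its surroundings. The deposited peak lists held 89727, 94174 and 92032 peaks in the control libraries and 110491, 118438 and 107938 in the DAC libraries on chromosomes 1 to 19 and X.

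DAC is a cytidine analogue that is built into replicating DNA and traps the DNA methyltransferases, so that methylation of CpG sites is diluted as cells divide. In differentiated cells, CpG-rich promoters of many germ line genes, 1 allele of imprinted genes and most transposon copies are held methylated and closed. CpG island promoters of housekeeping genes are unmethylated and open, and enhancers of epithelial tumour cells are often bound by AP-1, TEAD and RUNX factors. The comparison addresses which of these elements were open in control cells, which were open after DAC, and which changed their standing among elements open in both.

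Peaks of the 6 libraries were merged where they overlapped, which gave 146712 regions. A region called in 3 of 3 DAC libraries and 0 of 3 controls is named gained, the reverse is named lost, and a region called in all 6 is named shared. There were 17563 gained regions (12% of all regions), 5245 lost regions (3.58%) and 67038 shared regions. A gained or lost status carries no test. The excess of gained over lost regions depended on how weak peaks were handled. With only peaks of a fold enrichment of at least 5 in the lists, the counts were 8037 gained and 8114 lost. That cut also removes DAC peaks under 5, so a region called in both arms can count as lost. Of the 5245 lost regions, 1547 had at least 5 in all 3 control libraries. Of the 17563 gained regions, 6147 had it in all 3 DAC libraries. With only peaks of a −log10 q of at least 5 there were 14810 gained and 5689 lost. Fold enrichment is the authors' ratio of a peak to its own library's local background, and it was lower in DAC libraries. Over the shared regions its median was 10.6, 10.7 and 10.6 in the control libraries and 8.42, 8.53 and 8.43 in the DAC libraries, so the groups did not overlap.

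CpG dinucleotides, the sites that DNA methyltransferases modify, are in capitals in the sequences that follow (GRCm38, 5′ to 3′), because gained elements were rich in them. The first 4 are the 120 bases before the annotated 5′ end of germ line genes with a gained promoter. They are Dazl (chr17:50293637-50293756, minus strand), Gpat2 (chr2:127425079-127425198, plus strand), Mov10l1 (chr15:88982789-88982908, plus strand) and Stag3 (chr5:138280120-138280239, plus strand), and they held 12, 9, 6 and 8 CpG dinucleotides.
Dazl: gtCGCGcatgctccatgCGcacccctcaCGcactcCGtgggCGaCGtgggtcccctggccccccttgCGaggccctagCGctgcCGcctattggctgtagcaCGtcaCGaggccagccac
Gpat2: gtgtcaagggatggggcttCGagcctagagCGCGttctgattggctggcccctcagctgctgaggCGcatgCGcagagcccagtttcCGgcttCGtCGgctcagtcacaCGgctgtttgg
Mov10l1: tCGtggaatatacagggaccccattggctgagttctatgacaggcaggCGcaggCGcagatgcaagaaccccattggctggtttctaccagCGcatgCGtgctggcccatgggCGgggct
Stag3: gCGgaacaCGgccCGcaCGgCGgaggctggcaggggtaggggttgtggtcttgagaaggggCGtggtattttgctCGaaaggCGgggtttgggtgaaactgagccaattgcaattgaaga

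Away from promoters many gained regions shared stretches of sequence with each other. The 6 most frequent sequences of 20 bases within 100 bp of a gained summit, each taken after removing the regions that held the one before, are shown with CpG in capitals because 33.3% of gained regions (5855 of 17563) held at least 1 of them.
Sequence 1: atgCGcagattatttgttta
Sequence 2: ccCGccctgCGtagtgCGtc
Sequence 3: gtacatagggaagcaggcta
Sequence 4: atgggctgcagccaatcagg
Sequence 5: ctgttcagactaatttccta
Sequence 6: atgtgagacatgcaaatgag
Distal examples follow, with CpG in capitals, from the regions of highest fold enrichment. The region nearest to Lum (chr10:97541847-97541966) held sequences 1 and 4, the one nearest to Peli2 (chr14:48085688-48085807) is a tandem array with a period of 34 bp, and the one in an intron of Slc8a3 (chr12:81278679-81278798) lay wholly in soft-masked repeat.
Lum: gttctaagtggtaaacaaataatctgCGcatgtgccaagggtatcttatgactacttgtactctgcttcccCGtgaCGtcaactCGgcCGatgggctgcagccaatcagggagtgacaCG
Peli2: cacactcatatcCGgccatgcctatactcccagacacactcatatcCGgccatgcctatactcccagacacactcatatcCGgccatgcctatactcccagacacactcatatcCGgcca
Slc8a3: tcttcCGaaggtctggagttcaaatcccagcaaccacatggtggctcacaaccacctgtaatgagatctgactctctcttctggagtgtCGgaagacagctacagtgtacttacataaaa

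The libraries of each arm were alike and the arms stood apart. Between libraries of the same arm the log2 fold enrichment correlated across regions with r of 0.964 to 0.967, and between arms with r of 0.803 to 0.813. Peaks covered 53.6 ± 0.928 Mb in control and 59.2 ± 2.30 Mb in DAC libraries (SD, n = 3 each). A peak lay within 1000 bp of the 5′ end of 12373 ± 49.1 protein-coding genes in control and 13513 ± 136 in DAC libraries. More than 50% of the peak was soft-masked repeat in 6.41 ± 0.213% of control and 15 ± 0.257% of DAC peaks, and 11.3 ± 0.241% and 15.9 ± 0.529% were CpG island-like. All 7 measures of a library that were compared, these 4 and the number, median width and median fold enrichment of peaks, were separated between the arms, with an exact two-sided permutation p of 0.10, the smallest that 20 relabellings of 3 against 3 allow, and 0.10 after Benjamini-Hochberg adjustment over the 7. The background density in which the peaks were called also moved with treatment. It was solved from each peak's fold enrichment and its p-value, leaving out the peaks with the smallest p-values. Its lowest level, taken as the 1% quantile over peaks, was 4.13, 4.43 and 4.01 in control and 5.89, 6.50 and 5.28 in DAC libraries. Its part in the numbers of peaks was not tested. The promoters of mammary epithelial genes were open in both arms, at 29 to 30 of 37 in control and 29 to 31 in DAC libraries. Over all 21769 genes the promoter was called at 12368 to 12471 in control and 13421 to 13671 in DAC libraries. Leukocyte marker promoters were called at 2 of 19 in control and 2 to 3 in DAC libraries, with Ikzf1 gained and Spi1 lost. Fibroblast and endothelial marker promoters were called at 5 to 6 of 19 in control and 6 to 8 in DAC libraries, with Cldn5 and Twist2 gained. Melanocyte marker promoters were called at 4 of 16 in control and 6 in DAC libraries, with Pax3 and Kit gained. Hepatocyte marker promoters were called at 1 to 2 of 14 in control and 2 in DAC libraries, with Tat gained. Among members of these lists Ptprc, Cd3e, Alb, Tyr and Mlana had no peak in any library.

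Promoters gained after DAC included those of many germ line, imprinted, developmental regulator and neuronal genes. A promoter, the 5′ end plus and minus 1000 bp, was gained when it overlapped a gained region and no region called in a control. There were 914 gained promoters among 21769 genes (4.20%), in 887 regions, and 79 lost promoters (0.363%) in 78 regions. Of the 9145 genes with no control call at the promoter, 9.99% were gained. At 102 of the 914 another annotated start of the gene was already open in the controls. As with regions, the excess depended on how weak peaks were handled. With only peaks of a fold enrichment of at least 5 the counts were 253 gained and 239 lost promoters. Of the 914 gained and 79 lost promoters above, 192 and 9 were among these. With only peaks of a −log10 q of at least 5 the counts were 667 gained and 92 lost. The 1033 gained regions at promoters, some beside a region open in controls, held a median of 7.29 CpG per 100 bp and 69.3% were island-like, against 5.92 CpG and 67.9% in shared regions at promoters.

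The piRNA pathway silences transposons in germ cells. Genes of this pathway and other germ cell RNA genes, taken as 1 list, were gained at 15 of 25 promoters, against 4.20% of all genes. Of the 25, 20 had no control call. Gpat2, a mitochondrial acyltransferase needed for piRNA production, had a fold enrichment of 15.5, 15.4 and 16.9 in the DAC libraries and no peak in a control. Mov10l1, the helicase that binds piRNA precursors, had 14.5, 15.8 and 15.8 in the DAC libraries. Gtsf1, a cofactor of PIWI proteins, had 13.5, 14.0 and 15.4 there, but another start of the gene was open in controls. These genes were named as the highest of their list, and over all gained promoters the median of the lowest DAC value was 3.65. Piwil2, a PIWI protein itself, had 12.1, 12.1 and 11.9. Dazl, an RNA-binding protein of early germ cells, had 10.0, 10.9 and 11.0. Tdrkh, a Tudor domain protein of piRNA trimming, had 16.9, 16.8 and 14.8, with another start open in controls. Only Tdrd7 of the 5 list members in shared regions rose on both rank scales used below.

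Genes of the meiotic chromosome axis, synaptonemal complex and recombination were gained at 12 of 28 promoters, against 4.20% of all genes. Of the 28, 23 had no control call. Stag3, the cohesin subunit of meiosis, had a fold enrichment of 12.2, 11.9 and 11.4 in the DAC libraries. Its gained region lay at chr5:138279805-138281063 and also covered the promoter of Gpc2. Tex11, an X-linked gene of meiotic recombination, had 9.15, 12.5 and 11.8. The synaptonemal complex genes were lower, with 8.42, 9.59 and 8.12 at Tex12 and 8.86, 7.73 and 9.64 at Sycp1. Hormad1, a protein of the chromosome axis, had 7.55, 7.06 and 7.33, and Meiob, which binds single-stranded DNA in recombination, had 8.13, 6.53 and 6.53. None of these promoters had a peak in any control library. Of the 5 members in shared regions 1 rose and 1 fell on both rank scales used below, and the one that fell, by 10.3 points, was Spo11, which makes the meiotic double-strand breaks.

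Testis and cancer-testis genes were gained at 9 of 43 promoters (20.9%, against 4.20% of all genes), and 32 of the 43 had no control call. Brdt, the testis bromodomain protein, had a fold enrichment of 18.2, 17.4 and 15.2 in the DAC libraries, with another start open in controls. Taf7l, a TFIID subunit of male germ cells, had 12.4, 10.5 and 13.5, and Slc25a31, the ADP/ATP carrier of testis, had 9, 12.4 and 9.56. Tex19.1, a germ line gene that restrains retrotransposons, was called in every library and rose. Its fold enrichment was 7.32, 6.69 and 7.46 in control and 15.8, 16 and 15.9 in DAC libraries, with no overlap between the groups. Its mean percentile among shared regions went from 27.1 to 87.6 (limma, adjusted p = 1.25e-05), and it also rose by 72.7 points on the rank of −log10 q. None of the promoters of the Rhox cluster of 32 reproductive homeobox genes was gained, although 4 were called in part of the libraries.

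Imprinted genes were gained at 12 of 42 promoters, in 10 regions (28.6%, against 4.20% of all genes), and 30 of the 42 had no control call. Peg3 and Usp29, paternally expressed neighbours, share the region chr7:6728270-6729888, with a fold enrichment of 8.03, 8.48 and 7.63 in the DAC libraries. Peg10 and Sgce share another, with 5.34, 5.19 and 4.80. Zrsr1 had 7.70, 7.78 and 7.43. Of the 11 imprinted genes whose promoter was in a shared region, H13, Mcts2 and Igf2r rose on both rank scales (27.3%) and none fell. Over all genes 7.90% rose and 3.17% fell on both. At Igf2r the rise was in rank, with overlapping fold enrichments of 13.7, 12.9 and 11.4 in control and 12.8, 12.1 and 12.3 in DAC libraries. H13 went from 8.70, 8.10 and 8.61 to 10.5, 12.1 and 11.5 in fold enrichment (limma, adjusted p = 0.000192).

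**Figure D1:**
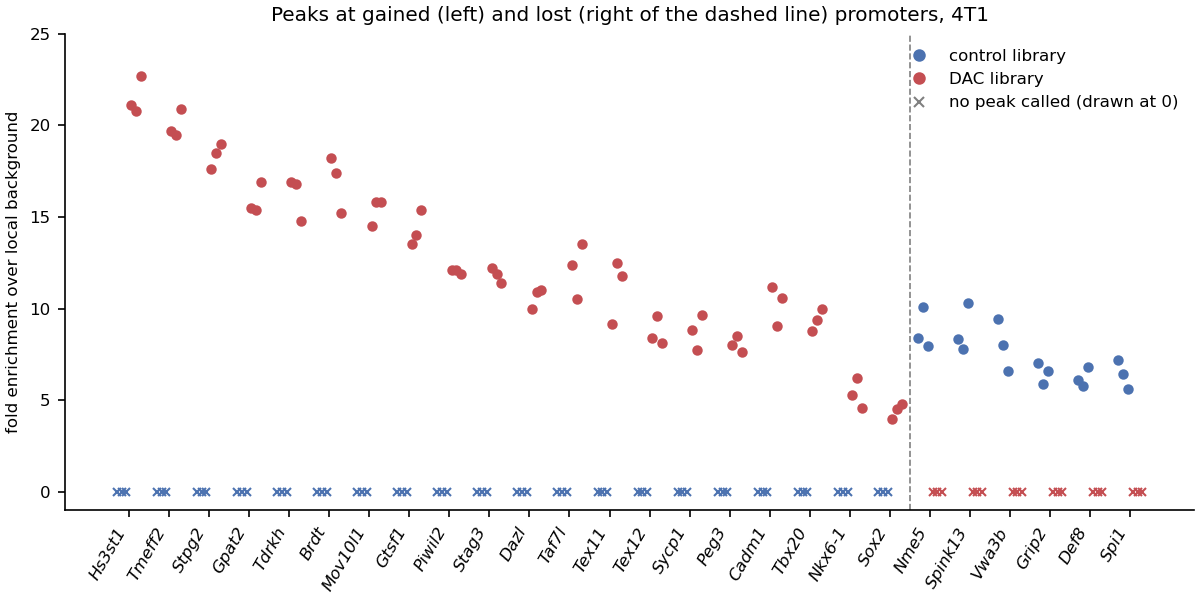
Fold enrichment over the local background (vertical axis) at 20 gained and 6 lost promoters, with 1 point per library and a cross at 0 where no peak was called. Control libraries have no peak at any gained promoter shown and DAC libraries none at any lost one; the gained values span 3.98 at Sox2 to 22.7 at Hs3st1 and the lost values 5.59 at Spi1 to 10.3 at Spink13.

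Promoters of developmental transcription factors were also among the gained. The LIM, Six-family and NK homeobox factors were gained at 13 of 32, the Hox clusters at 10 of 39 in 9 regions and the SOX factors at 5 of 19. The T-box factors were gained at 4 of 15, the POU and IRX factors at 5 of 21 and the forkhead factors at 8 of 44. In this order 26, 24, 11, 10, 13 and 21 had no control call. Over all genes 4.20% were gained, and 9.99% of those without a control call. Tbx20, a heart regulator, had a fold enrichment of 8.80, 9.39 and 9.96 in the DAC libraries. Sox30, a factor of spermatid development, had 9.44, 11.6 and 10.7. The other named factors lay lower, as Nkx6-1 with 5.26, 6.21 and 4.59, Hoxb9 with 4.65, 4.40 and 5.89, Foxd1 with 5.39, 6.16 and 5.83, and Sox2, a pluripotency factor, with 3.98, 4.54 and 4.78. Among those already open, the changes went in both directions. Hoxd3 and Hoxd4, in 1 region, and Hoxa4 rose on both rank scales, and Hoxc6 and Hoxa13 fell on both. Pax2, a kidney and midbrain regulator, fell from 11.1, 12.2 and 12 to 4.26, 4.85 and 4.51 in fold enrichment (limma, adjusted p = 7.05e-05).

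Cell adhesion and channel genes of neurons formed the next group. Clustered protocadherins, which give neurons surface identity, were gained at 16 of 57 promoters, and 47 of the 57 had no control call. Pcdhgc4 had a fold enrichment of 7.33, 6.22 and 6.84 and Pcdhgb4 6.10, 5.73 and 6.21 in the DAC libraries. The gene model Gm42416, which spans 887 kb of this cluster on chromosome 18, held 42 gained, 0 lost and 5 shared regions. Non-clustered protocadherins were gained at 4 of 12 promoters, with 7.52, 6.95 and 6.59 at Pcdh15, and Pcdh17 and Pcdh1 rose on both rank scales. Potassium channels were gained at 17 of 92 promoters, led by Kcnk12 with 7.20, 5.94 and 7.30, and lost at 1, Kcnh6, with 4.87, 6.08 and 5.59 in the control libraries. Calcium and sodium channel subunits were gained at 5 of 36 and neuronal markers at 7 of 28, among them the neurofilament gene Nefm with 4.21, 4.80 and 4.78. No control call was present at 9 non-clustered protocadherins, 64 potassium channels, 23 calcium and sodium channel subunits and 21 neuronal markers. Over all genes 4.20% were gained, and 9.99% of those without a control call.

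Most interferon and antigen presentation promoters were open already in controls. Interferon response genes were gained at 2 of 52 promoters (3.85%, near the 4.20% over all genes), and only 4 of the 52 had no control call. The 2 were Oas2 with a fold enrichment of 4.64, 3.78 and 4.16 and Ifi44 with 3.63, 4.40 and 4.46. Antigen presentation genes were gained at 1 of 37, of which 5 had no control call, namely H2-Q1, at 2.81, 2.41 and 2.63. Chemokines were gained at 2 of 30 and checkpoint genes and natural killer ligands at 2 of 27, with 15 and 10 lacking a control call. The natural killer ligands H60b and Raet1e share 1 gained region with 7.78, 7.22 and 5.80. Tumour suppressors often methylated in cancer were gained at 5 of 42 (11.9%), of which 17 had no control call. The adhesion gene Cadm1 had 11.2, 9.03 and 10.6 and Igfbp3 4.01, 3.58 and 3.48. No promoter was gained among the 37 mammary epithelial, 34 cell cycle, 20 cholesterol synthesis and 20 DNA methylation genes, but only 7, 0, 2 and 6 of these had no control call and could have been gained. Zinc finger genes named Zfp were gained at 8 of 399, but 72 of the 399 had no control call. Olfactory receptors were gained at 3 of 1105 (0.271%), of which 1087 had no control call, against 9.99% of all genes without one.

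**Figure D2:**
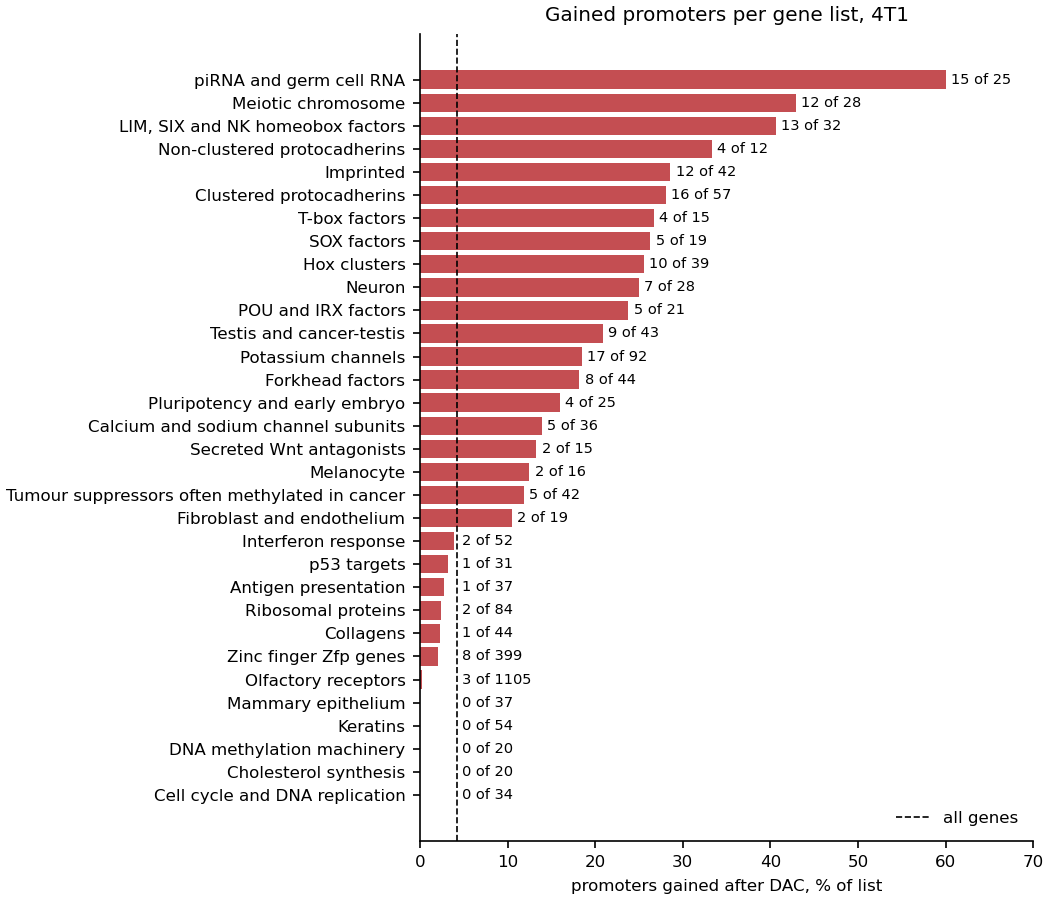
Share of each gene list whose promoter was gained after DAC (horizontal axis, percent), with counts beside the bars and the share over all genes (4.20%) as a dashed line. piRNA and germ cell RNA genes (15 of 25) and meiotic chromosome genes (12 of 28) stand highest, and mammary, keratin, cell cycle, cholesterol and DNA methylation genes are at 0.

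The strongest gained promoters over all genes were not confined to the germ line lists. Hs3st1, a heparan sulfate sulfotransferase, had the highest values, with a fold enrichment of 21.1, 20.8 and 22.7 in the DAC libraries, and another start of it was open in controls. Tmeff2, a transmembrane protein with follistatin-like domains, had 19.7, 19.5 and 20.9. Their regions were 43.6% and 65.3% soft-masked repeat with 1.91 and 1.47 CpG per 100 bp, unlike most gained promoters. Stpg2, a sperm tail protein gene, had 17.6, 18.5 and 19. Fam228b and Pfn4, the latter a testis profilin, share a region with 18, 20.2 and 18.2. Rbm44, an RNA-binding protein gene of germ cells, had 14.8, 16.3 and 15.9. Cul4b, a ubiquitin ligase scaffold, had 14.5, 17.6 and 15.9 at a start that controls did not use, with another start open in them.

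Lost promoters were few and poor in CpG, with a median of 1.7 per 100 bp over genes against 7.61 at gained and 5.99 at shared promoters. The lowest fold enrichment of the 3 libraries was similar, at a median of 3.72 in lost and 3.65 in gained promoters. The highest were Nme5, of the nucleoside diphosphate kinase family, with a fold enrichment of 8.38, 10.1 and 7.98 in the control libraries, Spink13, a protease inhibitor, with 8.33, 7.80 and 10.3, and Vwa3b with 9.44, 8.04 and 6.59. Spi1, the myeloid factor PU.1, had 7.21, 6.45 and 5.59 in control libraries and no DAC peak. The alarmin gene Il33 had 3.90, 6.08 and 3.79 and the interleukin 13 decoy receptor gene Il13ra2 6.04, 6.63 and 4.59. Trp73, of the p53 family, had 2.65, 2.98 and 2.48. Of the 79 lost promoters, 16 had another start open in DAC libraries, and their list membership was scattered, with at most 2 in any list.

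Among genes fixed for reporting, Dnmt1, the maintenance methyltransferase that DAC traps, had no control peak at its annotated 5′ end and a peak of fold enrichment 3.46 in 1 DAC library. Tet1, a 5-methylcytosine oxidase, had no peak at its annotated 5′ end. Other annotated starts were not looked up for Dnmt1 or Tet1, so whether another start of either gene was open is not known. Dck, the kinase that activates DAC, was strong in all libraries, with 21.3, 23.3 and 23.1 in control and 21.7, 21.5 and 22.9 in DAC libraries, and was not called changed (limma, adjusted p = 0.0517). Cda, the deaminase that inactivates it, Uhrf1, which guides Dnmt1, Epcam and Mitf were also open in all 6 libraries and not called changed.

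Gained regions were more often repeat and richer in CpG than lost or shared regions. Only 5.88% were at promoters, against 16.7% of shared regions, and 56.4% were between genes. Soft-masked repeat made up more than 50% of the region in 46.6% of gained, 7.07% of lost and 4.82% of shared regions. The median CpG density was 3.04 per 100 bp in gained, 0.912 in lost and 1.39 in shared regions, and 29.2%, 0.782% and 14.1% were island-like. Stronger gained regions were more often repeat: of the 6147 with a fold enrichment of at least 5 in all 3 DAC libraries 71.6% were mostly repeat, and of the 945 with at least 10 it was 79.5%. The 9378 gained regions that were not mostly repeat held 1.97 CpG per 100 bp at the median. They lay a median of 26.9 kb from a 5′ end, against 80.2 kb for the mostly repeat ones. On the X chromosome there were 45.4 gained per 100 shared regions, 78.7% of them mostly repeat, against 30 per 100 on the highest autosome, chromosome 12. Lost regions on the X were 13.3 per 100 shared. Shared regions were sparse there, at 7.74 per Mb, and per Mb the X had fewer gained regions (3.51) than any autosome (5.28 to 8.68).

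The 6 repeated sequences differed in how many of their copies were gained, and a region could hold more than 1 of them. They were picked for their frequency at gained summits, so a high share in gained regions follows in part from that choice. Sequence 1 was in 3231 gained regions, 18.4% of the total. It had 5176 copies on chromosomes 1 to 19 and X, of which 68.0% lay in gained, 1.93% in shared and only 1 in lost regions. Sequence 2 was in 922 gained regions, and of its 1398 copies 69.4% were in gained and 21.4% already in shared regions. Sequence 3 had 7313 copies with 31.7% in gained regions, sequence 4 had 6603 with 48.7% and sequence 5 had 7997 with 17.4%. Most copies of sequences 3 and 5, 4536 and 5847, lay in no region at all. Sequence 6 had 25.8% of 1749 copies in gained and 15% in shared regions, and its regions held the least CpG of the 6, at a median of 1.65 per 100 bp. How the authors placed reads that fit several copies is not given in the sources used, so the status of 1 copy cannot be told apart from that of its relatives.

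Several motifs frequent in gained regions lay mostly in those with the repeated sequences. The YY1 motif (AAGATGGCG, sought on both strands within 100 bp of the strongest summit, as were all motifs) was in 20.2% of gained, 0.0763% of lost and 0.686% of shared regions. It was in 86.3% of the regions with sequence 1 and 79.3% of those with sequence 5, but in 3.28% of the 11708 gained regions with none of the 6 sequences. The cyclic AMP response element (TGACGTCA) was in 14.2% of gained and 1.05% of shared regions, with 65.7% in regions of sequence 1 and 1.82% in gained regions without the 6 sequences. The CCAAT box (CCAATNNG) was in 29.2% and 8.29%, and in 8.58% of gained regions without them. Sequence 4 holds the CCAAT box itself, and all of its regions matched. The KLF/SP motif (GGGCGGGG) was in 99.8% of the regions of sequence 2, which overlaps it. A match is a letter pattern and not evidence of binding.

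Motifs of AP-1, RUNX, TEAD and CTCF were less frequent in gained than in shared regions. The AP-1 motif (TGANTCA) was in 18.2% of gained, 35.2% of lost and 40.2% of shared regions, and in 32.9% of gained regions that were neither promoters nor mostly repeat, against 46.6% of all shared regions away from promoters. The RUNX motif (TGTGGTNT) was in 2.94% of gained, 9.86% of lost and 6.58% of shared regions, and the TEAD motif (GGAATG) in 12.6%, 19.9% and 16%. In gained regions with a fold enrichment of at least 5 in all 3 DAC libraries TEAD was not rarer, at 16.1%, and with at least 10 it was in 21.5%. At these strengths AP-1 was in 11.7% and 6.35%, RUNX in 1.37% and 0.952% and CTCF in 0.39% and 0.106%. The CTCF motif was in 0.826% of gained and 5.44% of shared regions. Lost regions were narrow, with a median width of 339 bp against 757 bp for shared ones, and 43.6% lay in introns. Among the strongest lost regions were one in an exon of Anapc1, a cell cycle ubiquitin ligase subunit, with a fold enrichment of 17.5, 19.4 and 19.5 in the control libraries, one in an exon of Atad1 with 16.2, 16.2 and 16.6, and one in an intron of the chromatin remodeller gene Chd7, with 17.8, 19.8 and 16.1. A region nearest to Slc8a1 (chr17:82087247-82087446) with 16.4, 13.3 and 14.2 is shown because it holds both motifs in capitals, TGANTCA and TGTGGTNT, the latter on the opposite strand.
Slc8a1: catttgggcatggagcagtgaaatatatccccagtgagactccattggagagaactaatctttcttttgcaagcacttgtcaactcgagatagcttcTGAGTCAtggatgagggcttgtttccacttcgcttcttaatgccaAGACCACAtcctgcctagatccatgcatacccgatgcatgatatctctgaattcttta

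**Figure D3:**
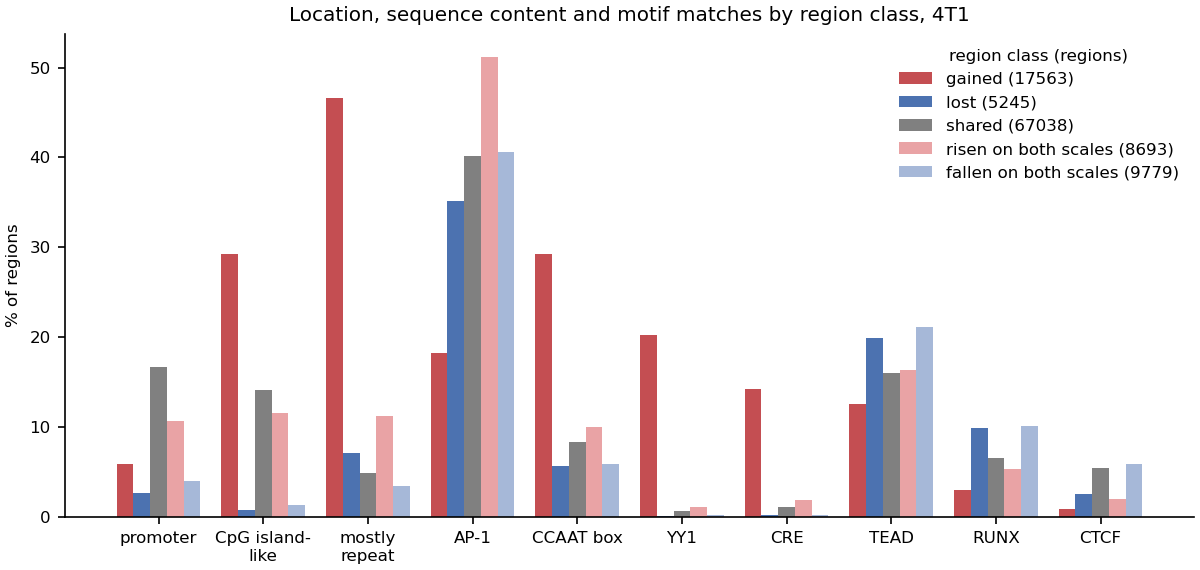
Share of regions (vertical axis, percent) at promoters, with island-like CpG content, mostly soft-masked repeat, or with a motif match near the summit, for gained, lost, shared, and shared regions that rose or fell on both rank scales. Gained regions stand out in repeat (46.6%) and YY1 (20.2%) and are lowest in AP-1 (18.2%); lost and fallen regions are highest in RUNX (9.86% and 10.1%).

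Among the 67038 regions open in all 6 libraries, standing was compared by within-library rank. The percentile of a region's fold enrichment among the shared regions was turned into a normal score and fitted with limma. A region was called risen or fallen at an adjusted p under 0.05 with a change of the mean percentile of at least 10 points. There were 15548 risen (23.2%) and 14122 fallen (21.1%) regions. The median fold enrichment of risen regions was 8.62, 8.68 and 8.60 in control and 10.1 in each DAC library. That of fallen regions was 12.8, 12.9 and 12.8 in control and 6.54, 6.66 and 6.53 in DAC libraries. Since the fold enrichment of most regions was lower after DAC, a region whose value did not move could rise in rank. The rank of the authors' −log10 q gave 12251 risen and 13551 fallen regions, with 8693 risen and 9779 fallen on both scales (13% and 14.6%) and 71 in opposite directions. Calls on both scales are used in what follows.

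The scales parted at promoters. By the rank of fold enrichment 4913 of 12036 genes with a shared promoter region rose (40.8%) and 619 fell (5.14%). By the rank of −log10 q 1181 rose (9.81%) and 671 fell (5.57%), and on both scales 951 rose (7.90%) and 381 fell (3.17%). The median change over these genes was +8.0 points by fold enrichment and +1.57 by −log10 q. The local background that divides the fold enrichment moved as well. At shared regions at promoters its median was 4.06, 3.96 and 4 times the lowest level in the control libraries and 2.96, 2.90 and 3.03 times in the DAC libraries. Away from promoters it was 1.5, 1.48 and 1.5 times against 1.33, 1.33 and 1.35 times.

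**Figure D4:**
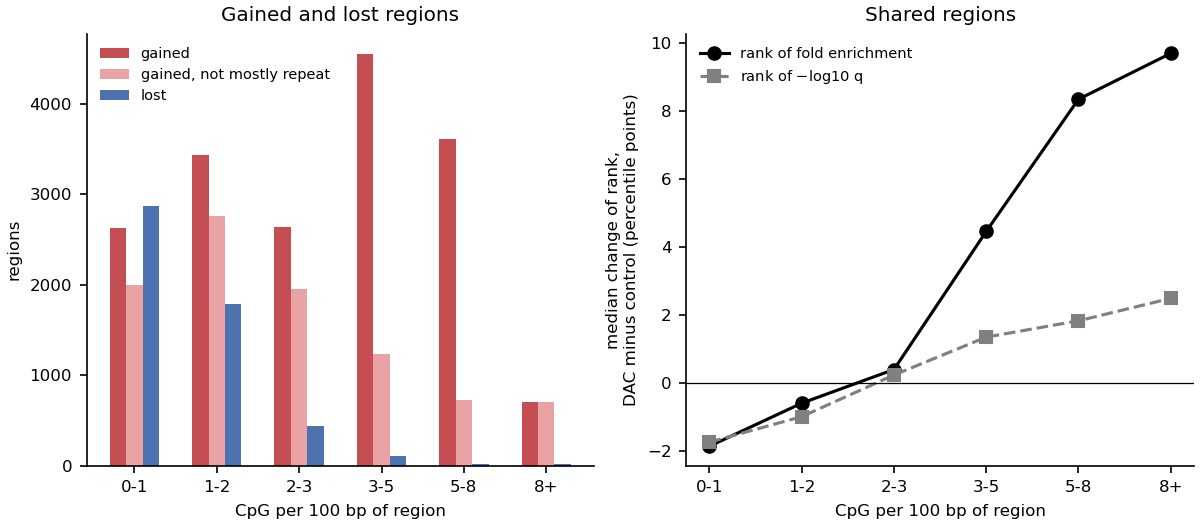
Left, number of gained and lost regions by CpG density (CpG per 100 bp). Right, median change of percentile rank of shared regions, DAC minus control, by CpG density, on the ranks of fold enrichment and of −log10 q. Below 2 CpG both ranks fall at the median; above 5 CpG the change is 8.34 to 9.69 points by fold enrichment and 1.82 to 2.48 by −log10 q.

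The promoters that rose most did so on both scales. Prss42, a testis serine protease, had a fold enrichment of 5.46, 4.97 and 4.19 in control and 11.7, 13.2 and 12.5 in DAC libraries, and its mean percentile went from 11.0 to 74.0 (limma, adjusted p = 3.30e-05). Nkapl, a germ cell gene, went from 5.26, 6.26 and 5.19 to 12.6, 12.7 and 13.9 (limma, adjusted p = 2.52e-05). The groups did not overlap at either gene. Cacng2, an auxiliary subunit of AMPA receptors, went from 7.21, 8.47 and 7.58 to 15, 13.5 and 17.5. Ifit3b, an interferon-induced gene, went from 4.68, 5.71 and 4.79 to 9.66, 8.98 and 11.6. Csn3, the milk protein kappa-casein, went from 7.99, 6.08 and 7.58 to 11.8, 11.9 and 12.6. Krtap4-16, Disp3, Fblim1, Slc16a5, Kbtbd6 and Creld1 rose by between 44.4 and 58.6 points, and with the 5 genes just named and Tex19.1 they make up the 12 largest rises.

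The promoters that fell most were likewise called on both scales. 2210016L21Rik went from a fold enrichment of 18.2 to 19.8 in control to 5.18 to 5.22 in DAC libraries, and its mean percentile from 89.7 to 22.1 (limma, adjusted p = 1.08e-05). Ifitm6, of the interferon-induced transmembrane family, went from 17.9, 18 and 18.6 to 5.08, 5.86 and 4.14 (limma, adjusted p = 4.10e-05). The complement protease genes C1rl and C1ra fell by 60.3 and 47.1 points, from 16.6, 15.1 and 16.2 to 5.08, 6.40 and 6.85 at C1ra. Tef, a circadian PAR bZIP factor, went from 14.2, 14.9 and 14.3 to 5.37, 5.20 and 4.94. Speer3, Syne4, Ripply1, Fgl1, Guca2a, 2410004P03Rik and Rab40b fell by between 47.7 and 52.9 points.

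**Figure D5:**
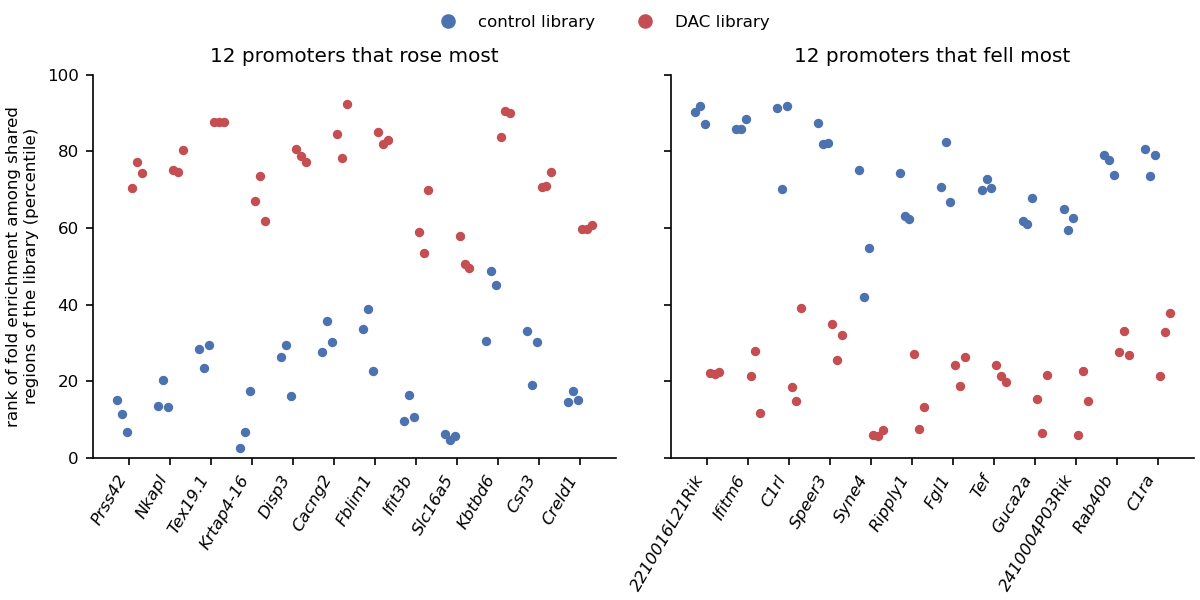
Percentile rank of fold enrichment among shared regions (vertical axis) in each library for the 12 promoters with the largest rise (left) and the largest fall (right). At each gene the 3 control libraries lie all below or all above the 3 DAC libraries; Tex19.1 went from a mean of 27.1 to 87.6 and Ifitm6 from 86.7 to 20.3.

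Ribosomal protein genes rose at 60 of 78 promoters by fold enrichment and at 18 on both scales, and none fell on both. Their median changes were +17.2 points by fold enrichment and +5.0 by −log10 q, beside +8.0 and +1.57 over all genes. Rps9 went from 10.6, 10.8 and 9.51 to 15.8, 16.7 and 15.4 in fold enrichment (limma, adjusted p = 4.23e-05) and Rps12 from 7.20, 7.78 and 6.91 to 10.4, 11.9 and 10.3. Targets of p53 rose at 14 of 27 promoters by fold enrichment (51.9%, beside 40.8% over all genes) and at 5 on both scales (18.5%, beside 7.90%), and none fell. They include Bbc3, the apoptosis inducer PUMA, which went from 3.69, 3.86 and 4.32 to 5.85, 5.71 and 6.06, the death receptor gene Tnfrsf10b, with 5.15, 5.51 and 4.90 against 7.17, 6.69 and 7.52, and Gadd45b. Mammary epithelial genes rose at 14 of 28 and at 4 on both scales (14.3%), among them Grhl2. Cell cycle genes rose at 17 of 34 by fold enrichment, where 40.8% of all genes did, but at only 2 on both scales (5.88%, beside 7.90%). Cdh1, the epithelial cadherin, rose by 22.7 points by fold enrichment but changed by 5.49 by −log10 q, and Krt8 by 11.6 and 0.709, so neither was called on both.

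Of 45 interferon response genes in shared regions, 4 rose (8.89%) and 3 fell (6.67%) on both scales, beside 7.90% and 3.17% over all genes. Rsad2, the antiviral protein viperin, rose from 4.87, 5.71 and 5.39 to 7.18, 7.13 and 7.81 in fold enrichment, and Cgas, the cytosolic DNA sensor, from 9.10, 9.24 and 8.45 to 10.4, 10.1 and 10.2. Tmem173, its downstream adaptor STING, fell from 13.2, 12.7 and 12.4 to 6.93, 6.84 and 7.62, and Ifi44l from 16.4, 16.5 and 16.4 to 9.71, 9.44 and 8.86. Of 30 antigen presentation genes 1 rose and 2 fell on both scales: H2-DMa rose, and H2-DMb1 and the proteasome activator gene Psme1 fell. Of the checkpoint genes Cd274, which encodes PD-L1, rose from 11.0, 9.92 and 10.6 to 10.2, 10.8 and 11.2, a rise in rank with overlapping fold enrichments, and Vtcn1 and Tnfrsf14 fell. The chemokine Cxcl12 rose from 10.5, 10.3 and 9.98 to 12.3, 13.4 and 13.4.

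Of 18 collagen genes in shared regions 5 fell (27.8%) and 0 rose on both scales, beside 3.17% and 7.90% over all genes, with median changes of -2.69 points by fold enrichment and -6.19 by −log10 q. Col6a2 fell from 16.9, 17.6 and 17.4 to 9.24, 8.86 and 7.96 in fold enrichment (limma, adjusted p = 9.45e-05), and the promoter of its neighbour Col6a1 was lost. Col24a1, Col23a1 and Col2a1, of cartilage, also fell. The other lists were small. Of 4 secreted Wnt antagonists in shared regions Sfrp1 and Cer1 fell on both scales and none rose, and of 4 such pluripotency genes 2 fell, Fgf4 among them. Over their whole lists, however, 2 of 15 Wnt antagonists (13.3%) and 4 of 25 pluripotency genes (16%) had a gained promoter, against 4.20% of all genes. Of the 15 and the 25, 9 and 18 had no control call. Serpin genes rose at 3 (17.6%) and fell at 2 (11.8%) of 17, with Serpinb2 and Serpinb9 among those that rose.

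Away from promoters, the regions that rose and fell on both scales differed in motifs and in repeat content. Of the 7761 that rose 55.8% held the AP-1 motif, against 41.8% of the 9386 that fell and 46.6% of all shared regions away from promoters. RUNX was in 5.63%, 10.3% and 7.48% in the same order, and TEAD in 17.3%, 21.5% and 17.7%. CTCF was in 2.02%, 5.88% and 6.20%, so it was rarer in risen regions while fallen ones had about the general share. Mostly repeat regions made up 12.4% of the risen and 3.51% of the fallen. Tandem arrays, windows of 200 bases at least 80% identical to themselves at a shift of 5 to 80 bases, were rare but uneven. There were 122 among the risen (1.57%) and 7 among the fallen (0.0746%) on both scales, beside 0.467% of shared regions away from promoters. Of the 17563 gained regions 188 were arrays (1.07%) and of the 5245 lost 10 (0.191%), beside 0.693% of all regions.

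Of the 8 regions with the largest rises several were repeats or tandem arrays. One nearest to Grxcr1 holds sequence 3 and went from 4.87, 3.5 and 4.59 to 29.0, 27.3 and 25.2 in fold enrichment, or from percentile 7.73 to 99.9 (limma, adjusted p = 9.04e-06). One nearest to Pcdh17 had 3.70, 4.05 and 3.99 in control libraries and up to 20.3 in DAC libraries, and went from percentile 5.15 to 96.5. It is shown (chr14:84171613-84171812, plus strand) because it repeats the AP-1 motif, in capitals. Intronic arrays in Atg2b and Aldh3a2, both with a period of 48 bp, went from 5.46, 4.61 and 5.59 to 22.1, 19.9 and 20.8 and from 4.68, 4.79 and 4.19 to 17.1, 17.2 and 18.2. An intron of Maml3, a Notch coactivator gene, held AP-1 and RUNX matches and went from 5.65, 5.16 and 5.19 to 20.8, 21.8 and 21.8.
Pcdh17: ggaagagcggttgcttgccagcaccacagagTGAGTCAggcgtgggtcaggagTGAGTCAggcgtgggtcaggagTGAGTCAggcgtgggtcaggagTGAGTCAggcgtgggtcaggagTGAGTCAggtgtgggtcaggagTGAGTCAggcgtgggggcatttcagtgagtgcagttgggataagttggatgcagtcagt

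The 7 regions described here, from those with the largest falls, were at most 11.5% soft-masked repeat and held at most 1.77 CpG per 100 bp. An intron of Arhgap29, a GTPase-activating protein gene, went from 20.2, 20.3 and 21.2 to 3.63, 4 and 3.98 in fold enrichment, or from percentile 93.8 to 9.07 (limma, adjusted p = 9.04e-06). A region nearest to Impad1 (chr4:4822233-4822432) went from 20.7, 20.4 and 19.6 to 3.05, 4.13 and 4.62. One in Slc17a6 (chr7:51644914-51645113) went from 20.1, 20.3 and 20.2 to 3.92, 3.73 and 4.78. Both are shown with AP-1 motifs in capitals and, at Impad1, a RUNX motif on the opposite strand. Regions nearest to Zpld1, Ndst4, Bckdhb and Itga1 fell by between 79.4 and 82.8 points. The distal regions named here as risen or fallen kept their direction and call on the rank of −log10 q.
Impad1: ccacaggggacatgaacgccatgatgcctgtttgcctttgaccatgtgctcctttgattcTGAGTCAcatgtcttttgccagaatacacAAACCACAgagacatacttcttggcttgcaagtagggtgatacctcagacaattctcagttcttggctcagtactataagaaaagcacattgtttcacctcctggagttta
Slc17a6: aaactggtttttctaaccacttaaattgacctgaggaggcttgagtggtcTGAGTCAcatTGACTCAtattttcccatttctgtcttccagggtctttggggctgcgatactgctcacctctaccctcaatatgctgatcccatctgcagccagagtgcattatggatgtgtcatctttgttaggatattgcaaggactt

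Gene bodies differed in where gained and lost regions gathered. C130026I21Rik, 278 kb on chromosome 1, held 23 gained, 0 lost and 4 shared regions. Fgfr2, a growth factor receptor gene whose model spans 2961 kb, held 17 gained, 6 lost and 80 shared regions. Smg6, a nuclease gene of nonsense-mediated decay, held 8 lost and 2 gained regions in 239 kb, and of its 15 shared regions 8 fell and 1 rose by the rank of fold enrichment. Snd1 held 7 lost and 3 gained regions in 460 kb. These genes are examples from the 8 with the most gained and the 8 with the most lost regions. Both sets are led by the model Gm20388, which spans 4435 kb with 80 gained and 31 lost regions. Counts grow with gene length and carry no test.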

How the data were processed

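The authors' peak lists, 1 per library in the narrowPeak layout, were used as deposited. The submitters' processing notes name MultiQC, FastQC, Bowtie2, Picard, MACS2, DiffBind, ChIPseeker and mm10, with no versions or roles. Per the labels' protocols, nuclei were transposed with a Nextera kit. Which sequencer read which library the sources used do not say. The deposited fold enrichment is a ratio to local background, and the deposited −log10 p and q values are those of each peak in its own library. Every list ended at a q of 0.05, and read depth per library is unknown, so no counting interval is given.

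Intervals on chromosomes 1 to 19 and X were merged at an overlap of 1 bp. Sequence came from RefSeq GRCm38.p6, the assembly that mm10 names, and genes from GENCODE M21, with 21728 protein-coding genes and 41 other list genes. Island-like means a CpG observed to expected ratio above 0.6 with GC above 50%. In limma (3.58.1, R 4.3.3; trend on) normal scores of within-library ranks were fitted with treatment as the only term, and p-values were adjusted over 67038 regions by Benjamini-Hochberg. The fit was also run on simulated data with known shifts in 200 regions. The other regions were not shifted there, so this does not check the ranks where most fold enrichments move. Local background was solved from fold enrichment and p as a Poisson tail, with 1 added to pileup and background. Peaks with a −log10 p of 290 or more were left out of this. That kept 92.4% to 93.9% of the peaks in control and 94.2% to 95.8% in DAC libraries. Library measures were compared by exact two-sided permutation.

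Members, the 54 gene lists and the 16 motifs were chosen with earlier results of these data known, so no list is independent support. Named genes are, per list and direction, up to 6 gained or lost promoters by their lowest fold enrichment and up to 4 risen or fallen ones by change of rank, with 10 and 12 per direction over all genes, 8 distal regions and 8 gene bodies per class, and 10 fixed genes. The absent markers and Gpc2 fall outside this rule. The repeated sequences, tandem arrays, recovered background and the split by strength were chosen after the values were seen. A few results under the naming rule are not reported here.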

Additional observations from a re-analysis of the deposited data

Results flagged for a closer look

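Peaks outside chromosomes 1 to 19 and X enter none of the comparisons above, and they were more numerous after DAC. On chromosome Y there were 53, 55 and 57 peaks in the control libraries and 143, 165 and 145 in the DAC libraries, with means of 55.0 and 151. On scaffolds and patches there were 828, 872 and 841 against 1145, 1192 and 1105, with means of 847 and 1147. Neither pair of groups overlapped, and no test was run on them.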

How the results depend on the processing

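Counts of gained and lost elements depended on peak strength. With a fold enrichment of at least 5 there were 8037 gained regions and 8114 lost regions, 253 gained promoters and 239 lost promoters. Of those reported above, 35.0% of the gained and 29.5% of the lost regions remained. For gained and lost promoters it was 21% and 11.4%. With a −log10 q of at least 5 the counts were 14810, 5689, 667 and 92. Taking equally many peaks from each library gave 11548, 8904, 486 and 165. With 2 of 3 libraries there were 8724 lost regions. A change of at least 20 points left 6066 risen regions and 7350 fallen regions. With a fold enrichment of at least 5 the differences between DAC and control turned to -3054 peaks, -1.44 Mb covered (covered Mb), -42.3 promoters with a peak and 17.3 bp of median width bp, and with equal numbers of peaks the width difference was 20 bp; the cause was not tested. Leaving out each library gave 18271 to 21304 gained regions, 5910 to 6903 lost regions, 923 to 1053 gained promoters, 90 to 109 lost promoters, 14574 to 14883 risen regions and 12877 to 13309 fallen regions. The replicate numbers did not pair the libraries, since same-numbered libraries deviated with correlations of -0.0117, 0.0167 and 0.0119, and the replicate block gave 15319 risen and 14045 fallen regions. On the rank of −log10 q the direction turned at 10 of 227 promoters covered by the naming rule, none called there: Cx3cl1 promoter rank -2.70, Il3ra promoter rank 1.26, Irf1 promoter rank -2.33, Kcnk13 promoter rank 1.75, Msh4 promoter rank -2.42, Msh5 promoter rank -0.238, Pou4f1 promoter rank 2.94, Tssk6 promoter rank -0.191, Zbtb38 promoter rank -3.10 and Zfp423 promoter rank 0.996 points.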
